A study of Homo sapiens with 4 samples.

Results

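Immediate early genes of the EGR, IER and KLF families, with the nuclear receptor NR4A1 and the serum response factor SRF, were followed across 4 RNA libraries of A375, a human melanoma line. The genes EGR1, EGR2, EGR3, IER2, IER3, IER5, KLF4, KLF6, NR4A1 and SRF were chosen by name, and all 10 were found among the 23284 gene symbols of each library. In every group the cells were A375 stably transfected with a plasmid. The vector library came from cells with empty pcDNA3, and the overexpression library from cells with pcDNA3 carrying MAGE-A1, a cancer-testis antigen. The scramble library came from cells with a pRNAT plasmid encoding a scrambled hairpin, and the hairpin library from cells with pRNAT-shMAGE-A1, labelled as the MAGE-A1 knockdown. The labels do not say whether a transfected line was 1 clone or a pool. Each group held 1 library, so there is no replicate check, no test was run, and each difference is between 2 libraries rather than 2 conditions. Levels are in RPKM (reads scaled to transcript length and to library size), and RPKM values can be set side by side between genes because they are scaled per length. Where 4 levels are given in a row, they follow the order vector, overexpression, scramble, hairpin.

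Immediate early genes are transcribed within minutes of a stimulus such as serum or a growth factor, without new protein synthesis, and most of their RNAs are short-lived. The RAS-RAF-MEK-ERK kinase cascade, which an activating BRAF mutation keeps switched on in A375, phosphorylates ternary complex factors such as ELK1 that sit with SRF on serum response elements. The core of such an element is the CArG box, in which CC and GG flank a run of A and T letters. EGR1, EGR2 and EGR3 are zinc finger transcription factors that bind GC-rich sites, and the NAB proteins restrain them. KLF4 and KLF6 are zinc finger factors that bind GC-rich and CACCC sites, NR4A1 (NUR77) is an orphan nuclear receptor, and IER2, IER3 and IER5 are small proteins without a DNA-binding domain of these families.

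The promoters below are shown because they are the windows of these genes that hold a CArG box, the letters through which SRF acts. RefSeq windows (GRCh38.p14), running from 250 bases before the annotated start to 50 after it, could be matched for 8 of the 10 genes, with 12 windows in all; EGR3 and IER3 had none. Each line gives the 250 bases before the start, 5′ to 3′ on the gene's own strand, with the CArG boxes and the letters TGACG (either strand, so also as CGTCA) in capitals. The EGR1 window is chr5:138465229-138465478 (plus strand), the EGR2 window chr10:62816367-62816616 (minus strand, the most downstream of 3 annotated starts) and the SRF window chr6:43171019-43171268 (plus strand, the more upstream of 2).
EGR1: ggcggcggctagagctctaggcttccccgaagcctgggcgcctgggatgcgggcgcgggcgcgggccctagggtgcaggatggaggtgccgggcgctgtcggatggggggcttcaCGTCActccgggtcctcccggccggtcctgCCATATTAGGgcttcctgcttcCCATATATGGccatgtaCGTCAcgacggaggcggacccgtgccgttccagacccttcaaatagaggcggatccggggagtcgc
EGR2: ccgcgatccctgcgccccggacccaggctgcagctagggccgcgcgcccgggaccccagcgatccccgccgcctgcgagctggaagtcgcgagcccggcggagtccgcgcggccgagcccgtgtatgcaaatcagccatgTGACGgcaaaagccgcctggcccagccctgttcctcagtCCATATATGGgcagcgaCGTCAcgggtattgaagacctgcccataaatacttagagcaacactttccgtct
SRF: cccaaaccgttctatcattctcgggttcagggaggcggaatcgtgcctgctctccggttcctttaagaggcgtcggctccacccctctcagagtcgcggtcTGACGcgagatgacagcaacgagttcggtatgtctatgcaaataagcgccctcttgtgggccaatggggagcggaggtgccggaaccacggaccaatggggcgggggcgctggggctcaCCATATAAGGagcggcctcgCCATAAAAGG
EGR1 has 2 CArG boxes, at -105 to -96 (CCATATTAGG) and at -83 to -74 (CCATATATGG), where -1 is the base before the start. EGR2 has 1, at -71 to -62 (CCATATATGG), and SRF has 2, at -30 to -21 (CCATATAAGG) and at -10 to -1 (CCATAAAAGG). A CArG box on either strand was thus found in 3 of the 8 genes, and in 1.60% of the 27305 genes with a window. TGACG, the core of the cyclic AMP response element, was found in 5 of the 8 (EGR1, EGR2, IER2, KLF4 and SRF) and in 28.4% of all genes, and the full element TGACGTCA in 0 of the 8 and 2.25% of all. The EGR site GCGGGGGCG was present in KLF6 (-65 to -57) and SRF (-49 to -41), against 6.14% of all genes, and its form GCGTGGGCG in 0 of the 8, against 0.960%. GGGCGG, the GC box, was present in 6 of the 8 and 48.3% of all, and in KLF6 and SRF it overlaps the EGR site. These are matches of letters in a short window, and no binding was measured.

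Depth, estimated from the steps of the low RPKM values, was 12640000 to 24550000 reads a library, lowest in the overexpression library. MAGEA1 levels were 1.80, 126, 0.767 and 0.473 RPKM. The last pair corresponds to about 19 and 14 reads, a read ratio of 0.614 with a 95% interval for counting error of 0.285 to 1.29, so a MAGEA1 level below that of the scramble library was not detectable in the hairpin library at this depth. Against the vector library, both the hairpin library (0.261, 0.136 to 0.470) and the scramble library (0.426, 0.241 to 0.717) were lower beyond counting error. SOX10, a neural crest and melanocyte factor, was at 281 to 336 RPKM, whereas the pigment genes PMEL and MLANA were below 1 RPKM everywhere and TYR was listed at 0 in 3 libraries and at 0.0847 with overexpression. The summed RPKM of the 9 melanocyte and neural crest markers was 1889.7, 1201, 1947 and 2169. VIM was the largest part of each sum, at 1387, 580.4, 1437 and 1613 RPKM, so the lower sum with overexpression is that of VIM. SOX10 was not lower there (281 in vector and 288 with overexpression). With overexpression S100B was at 88.8 and 17.4 RPKM, VIM at 1387 and 580.4 and CSPG4 at 116 and 302, and with the hairpin DCT was at 8.16 and 1.14. Of markers of other cell types, at most 2 of 5 keratinocyte, 3 of 5 fibroblast, 1 of 5 leukocyte and 1 of 4 endothelial genes reached 1 RPKM in a library. Their summed RPKM was 17.2 to 33.3, 2.26 to 7.0, 1.76 to 5.78 and 0.773 to 3.37, with the keratinocyte genes KRT1 and DSG3 at 0 throughout. The keratinocyte sum was highest, and the other 3 lowest, in the overexpression library. That keratinocyte sum was nearly all KRT10 (14.4 RPKM in vector and 32.9 with overexpression). KRT14 went the other way (3.51 and 0.385), and only 1 of the 5 keratinocyte genes reached 1 RPKM with overexpression. Small RNA genes made up 87.2% and 78.1% of the summed RPKM in the overexpression and hairpin libraries, against 46.3% and 29.5% in the vector and scramble libraries. The part of these markers and shares in the values below was not tested.

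**Figure D1:**
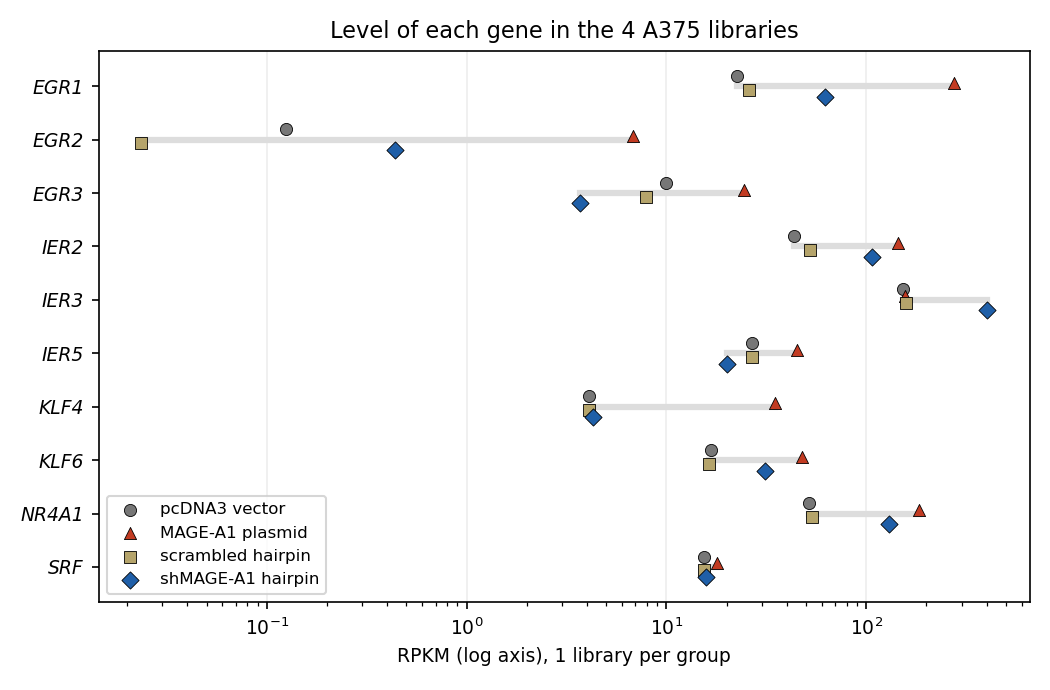
RPKM of each gene (log axis) in the vector, overexpression, scramble and hairpin libraries, 1 point per library, with a grey line over the range of the 4. EGR1, IER2, KLF6 and NR4A1 lie above both controls in the overexpression and the hairpin library. EGR2 does too, though at only 0.437 RPKM in the hairpin library. KLF4 lies above the controls in effect only with overexpression (34.8 against 4.10 to 4.28 RPKM), and IER3 only in the hairpin library (404 against 153 to 158).

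EGR1, the most studied of the immediate early zinc finger factors, had the largest RPKM difference with overexpression of the 10 genes. EGR1 levels were 22.7, 276, 26.0 and 62.2 RPKM. The controls lay close together and both other libraries lay above them, with the overexpression library far the highest. After adding 1 to each RPKM and dividing by the matched control, the scale of every log2 ratio here, EGR1 differed by 3.55 with overexpression and 1.23 with the hairpin, and by 0.19 between scramble and vector. From estimated reads the EGR1 ratio was 12.2 (95% exact conditional interval 11.6 to 12.8) with overexpression and 2.39 (2.24 to 2.55) with the hairpin. Between scramble and vector the EGR1 read ratio was 1.15 (1.06 to 1.23), an interval that does not hold 1. Such intervals cover counting error alone, without the spread between cultures. EGR1 is on chromosome 5 at 138465490 to 138469315 (GENCODE 29, GRCh38, plus strand).

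EGR2, known for its role in Schwann cell myelination and lymphocytes, was nearly absent outside the overexpression library. EGR2 levels were 0.125, 6.78, 0.0235 and 0.437 RPKM, which corresponds to about 8, 237, 1 and 24 reads. The log2 ratio with overexpression was 2.79, which understates a low gene, and the read ratio was 57.5 (28.7 to 135). In the other pair neither library reached 1 RPKM, the minimum for a gene to count as measured, and the read ratio of 20.01 has an interval of 3.26 to 823. EGR2 is on chromosome 10 at 62811996 to 62919900 (minus strand).

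EGR3 had the opposite sides in the pairs. EGR3 levels were 9.997, 24.6, 7.88 and 3.69 RPKM. With overexpression EGR3 was the highest of the 4, and the hairpin library was the lowest, with log2 ratios of 1.22 and -0.92. The read ratios of EGR3 were 2.46 (2.26 to 2.67) and 0.469 (0.406 to 0.542). The hairpin ratio falls just short of 2-fold with 1 added to each RPKM and passes it, at -1.07, with 0.1 added. Between the controls EGR3 differed by -0.31, the largest difference in size of the 9 genes measured there.

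NR4A1, which binds its DNA response element as a monomer or a dimer, was the second highest of the genes in all 4 libraries. NR4A1 levels were 51.5, 183, 53.6 and 130.2 RPKM. The interval of the read ratio between the controls held 1 (1.04, 0.991 to 1.09), and both other libraries lay above them. NR4A1 log2 ratios were 1.81 with overexpression and 1.27 with the hairpin, and the read ratios were 3.54 (3.41 to 3.68) and 2.43 (2.33 to 2.54). NR4A1 lies on chromosome 12 at 52022832 to 52059507 (plus strand) and has 22 annotated transcripts, so that its read numbers depend on the transcript length taken.

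The IER genes took 3 different courses. IER2, a nuclear protein, followed NR4A1: its levels were 43.3, 145, 52.3 and 106 RPKM. IER2 log2 ratios were 1.72 and 1.01, and its read ratios were 3.34 (3.16 to 3.54) and 2.04 (1.92 to 2.16). Between scramble and vector the IER2 read ratio was 1.21 (1.13 to 1.29), an interval that does not hold 1. On centred log2 levels across the 4 libraries, IER2 and NR4A1 were the closest pair among the 10 genes (distance 0.23). IER3 (IEX-1), a regulator of survival that is also a target of NF-kB and p53, had levels of 153, 157, 158 and 404 RPKM. For IER3 the first 3 libraries could not be told apart by counting error, with a read ratio of 1.02 (0.970 to 1.08) for overexpression, and the hairpin library stood alone at a log2 ratio of 1.35 and a read ratio of 2.56 (2.45 to 2.68). IER5, which acts with the heat shock factor HSF1, had levels of 26.7, 44.9, 26.9 and 20.1 RPKM. IER5 stayed within 2-fold, at log2 ratios of 0.73 with overexpression and -0.40 with the hairpin, though the read ratios of 1.68 (1.59 to 1.78) and 0.748 (0.698 to 0.801) exclude equal levels by counting error. In GRCh38 IER2 is on chromosome 19 at 13150415 to 13154908 (plus strand), IER3 on chromosome 6 at 30743199 to 30744554 (minus strand) and IER5 on chromosome 1 at 181088712 to 181092899 (plus strand).

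Of the Krüppel-like factors, KLF4, one of the reprogramming factors and a regulator of epithelial differentiation, differed with overexpression and not detectably with the hairpin. KLF4 levels were 4.11, 34.8, 4.10 and 4.28 RPKM. The 3 low libraries overlapped within counting error, and the log2 ratio was 2.81 with overexpression and 0.05 with the hairpin. The KLF4 read ratios were 8.45 (7.39 to 9.70) and 1.05 (0.856 to 1.29). KLF6, a growth-restraining factor whose RNA is induced early in injury, had levels of 16.8, 47.5, 16.4 and 31.1 RPKM. KLF6 was higher in both, with log2 ratios of 1.45 and 0.88 and read ratios of 2.83 (2.67 to 3.01) and 1.89 (1.77 to 2.03), the latter below 2-fold. KLF4 is on chromosome 9 at 107484852 to 107490482 and KLF6 on chromosome 10 at 3775996 to 3785281 (both minus strand).

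SRF, whose own promoter carries the pair of CArG boxes printed above, was nearly level. SRF levels were 15.5, 18.0, 15.4 and 15.8 RPKM. The log2 ratios of SRF were 0.20 and 0.04, and the read ratios were 1.16 (1.07 to 1.26) and 1.03 (0.944 to 1.12). EGR1 and EGR2, the other 2 genes with a CArG box in the window, were among the genes furthest above vector with overexpression. KLF4, without a CArG box in its window, had a log2 ratio of 2.81, next to 2.79 for EGR2, and the order of these 2 changes with the pseudocount (3.05 and 4.93 with 0.1 added). SRF is on chromosome 6 at 43171299 to 43181507 (plus strand).

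With overexpression, 7 of the 10 genes were at least 2-fold higher (EGR1, EGR2, EGR3, IER2, KLF4, KLF6 and NR4A1) and 0 lower, where of all 13577 genes measured 10.6% were higher and 7.28% lower. The median log2 ratio of the 10 genes was 1.58, against 0.02 for all genes. EGR1 was exceeded or equalled by 1.82% of all measured genes, KLF4 by 2.50% and EGR2 by 2.53%, whereas IER3 stood in the middle of the distribution (49.5%). All measured genes here include small RNA genes. With those left out and the libraries rescaled without them, the shares were 0.351% for EGR1, 0.626% for KLF4 and 0.296% for EGR2. With the hairpin, EGR2 dropped out as not measured, and 4 of the other 9 were higher (EGR1, IER2, IER3 and NR4A1) and 0 lower. There, 12.4% of 13569 genes were higher and 8.52% lower, and the medians were 0.88 and 0.06. IER3 was exceeded or equalled by 6.37% of genes, NR4A1 by 7.33%, EGR1 by 7.97% and IER2 by 12.1%. Between scramble and vector 0 of 9 passed 2-fold, against 0.893% of 13326 genes higher and 1.79% lower, and the genes lay between -0.31 and 0.26.

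**Figure D2:**
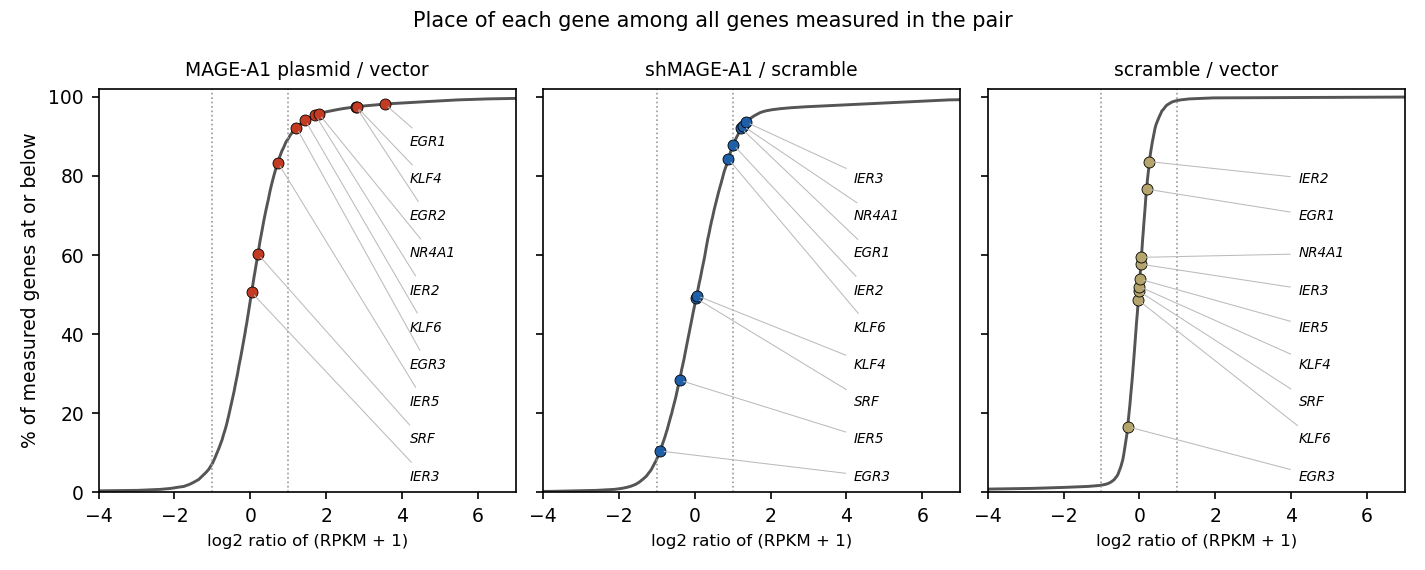
Share of measured genes (%) at or below a given log2 ratio of (RPKM + 1) in each pair of libraries (grey curve), with each of the genes marked and dotted lines at 2-fold. With overexpression 7 of 10 points lie right of 2-fold, with the hairpin 4 of 9, and between the controls all 9 lie between -0.31 and 0.26.

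EGR1, IER2 and NR4A1 were higher in both main pairs, which have no library in common. Of the 13106 genes measured in both pairs 3.62% were higher in both. The hairpin part of this pattern depends on the processing, as set out below. IER2 was at 0.41 there with a trend in transcript length and GC content removed. After scaling to ubiquitous genes EGR1 (0.75), IER2 (0.54) and NR4A1 (0.79) were all below 2-fold in the hairpin pair. The other 3 patterns, lower in both (0.992% of genes), higher then lower (0.969%) and lower then higher (0.481%), held 0 of the 9 genes. JUN had the pattern of higher with overexpression and lower with the hairpin. JUN, an AP-1 subunit of the same early response, was at 11.03 and 42.0 RPKM in the first pair and 15.4 and 1.73 in the second. FOS, the other classical SRF target, was at 57.6 and 37.9 RPKM in the first pair and 43.2 and 18.1 in the second. Neither followed EGR1: both were below the scramble library with the hairpin, where EGR1 was above it.

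The hairpin pair needs a limit beside these counts. Its ratios went with transcript length and GC content across 12575 genes (Spearman's rho of -0.529 and 0.431, over genes and not replicates). The same rho values were -0.168 and 0.524 between scramble and vector, and 0.0537 and -0.215 with overexpression. A trend in GC content was thus not particular to the hairpin pair. IER3 and IER2 have the shortest transcripts of the 10 genes (1244 and 2085 nt, against a median of 3203 over all), and IER2 the highest GC content (62.9%). With a fitted trend in both removed, IER3 was at 0.60 and IER2 at 0.41, below 2-fold, while EGR1, NR4A1 and KLF6 stayed or came past it, with NR4A1 at 1.11 and KLF6 at 1.19. The count was then 3 of 9 higher, against 4.86% of all genes. Scaling to 11 ubiquitous genes moved the median of all genes in this pair by -0.42, from 0.06 to -0.37, and scaling without small RNA genes moved it to -0.44. After either, 0 of the 9 genes passed 2-fold upward and EGR3 passed it downward (-1.29 and -1.47), against 5.66% and 3.9% of all genes higher and 19.3% and 24.2% lower. With upper quartile scaling EGR1, IER3 and NR4A1 were higher (9.1% of all genes) and EGR3 lower (12%). EGR3 was also lower than 2-fold with 0.1 added (13.2% of all genes), against the vector library (11.4%) and against the mean of both controls (10.1%). In the overexpression pair the same 7 genes passed 2-fold upward under every scaling, control and trend removal run. The share of all genes higher there was 9.13% with upper quartile scaling, 12.5% with ubiquitous genes, 7.54% without small RNA genes and 8.1% with the trend removed. It was 12.4% against the scramble library and 10.9% against the mean of both controls. With 0.1 added to each RPKM it was 13%, with no minimum level 6.18% and with a minimum of 5 RPKM 12.2%, again with the same 7 genes. At 3-fold 5 of the 10 genes remained with overexpression (5.15% of all) and 0 of 9 with the hairpin (4.67%).

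**Figure D3:**
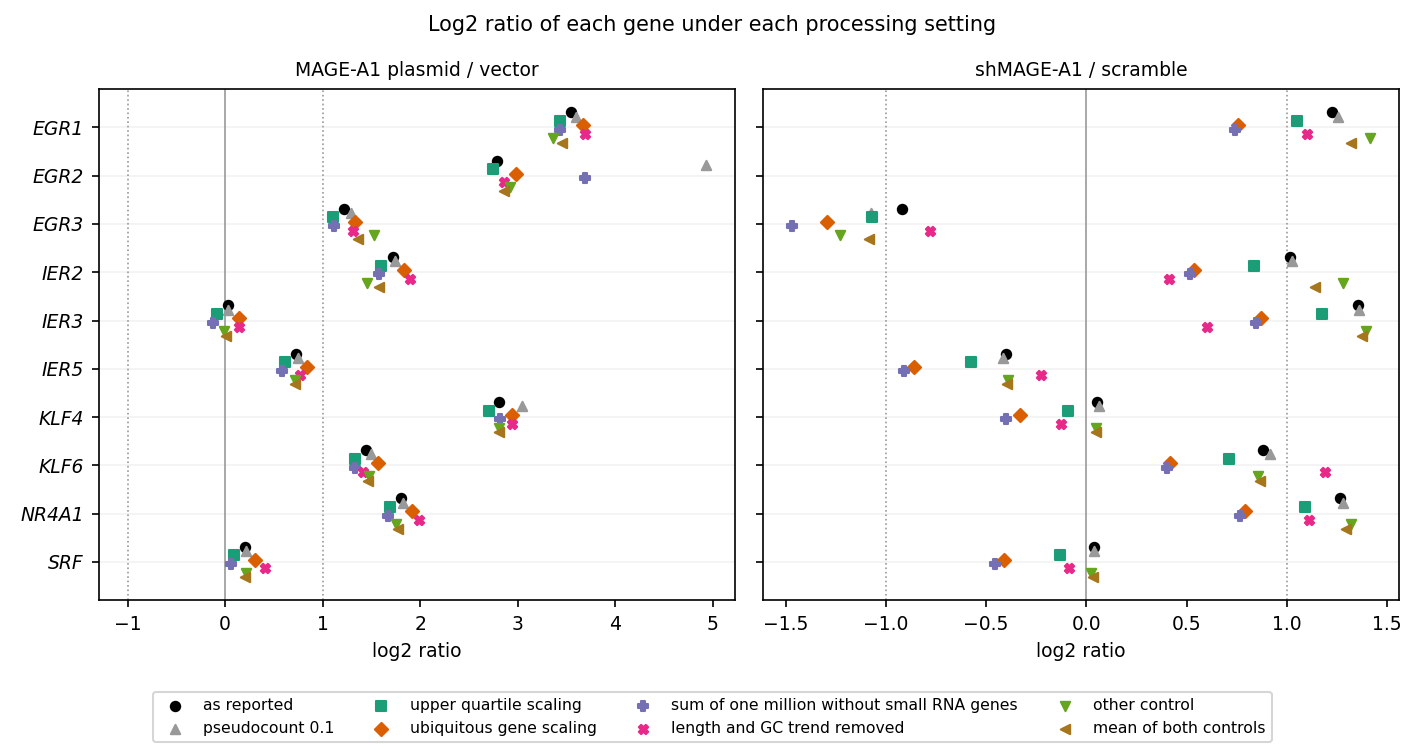
Log2 ratio of each gene in the overexpression pair (left) and the hairpin pair (right), as reported and under each alternative of scaling, pseudocount, control or trend removal, with dotted lines at 2-fold. On the left the 7 genes past 2-fold stay there in every setting; on the right EGR1 ranges from 0.74 to 1.42 and IER2 from 0.41 to 1.28, while EGR3 stays negative, from -1.47 to -0.78.

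The order of levels differed more in the overexpression than in the hairpin library. In both controls the order was IER3, NR4A1, IER2, IER5, EGR1, KLF6, SRF, EGR3, KLF4 and EGR2. KLF6 and SRF had overlapping counting intervals in both controls, as did NR4A1 with IER2 and IER5 with EGR1 in the scramble library. With overexpression EGR1 came first, ahead of NR4A1, IER3 and IER2, and EGR1 made up 29.5% of the summed RPKM of the 10 genes against 6.59% in the vector library. KLF6 and IER5 overlapped there at 47.5 and 44.9 RPKM. In the hairpin library IER3 held 51.9% of the sum, against 43.8% in the scramble and 44.6% in the vector library. IER3 was followed there by NR4A1, IER2, EGR1 and KLF6, and KLF4 and EGR3 overlapped in the hairpin library at 4.28 and 3.69 RPKM. The summed level of the 10 genes was 344, 937, 360.2 and 778 RPKM.

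Relatives outside the 10 genes were counted in the same way. Of all genes, 10.6% were higher and 7.28% lower with overexpression, and 12.4% and 8.52% with the hairpin. Of 16 further EGR, IER, NR4A and KLF genes, 6 of 14 measured were higher with overexpression and 0 lower (median 0.84), and with the hairpin 0 of 13 were higher and 3 lower (median -0.75). KLF5, a transcription factor of proliferating epithelia, was at 20.4 and 186 RPKM in the first pair and 29.4 and 12.99 in the second (log2 ratios 3.13 and -1.12). KLF7 was at 3.02 and 23.5 RPKM in the first pair and KLF10, an early TGF-beta target, at 16.5 and 94.2. KLF13 was at 9.26 and 4.11 RPKM in the second pair, where KLF12 was the other lower gene (3.56 and 0.946, named after its values were seen). With the length and GC trend removed, 0 of the 13 were lower with the hairpin, against 5.15% of all genes.

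Other immediate early genes were mostly higher with overexpression. Of 22 listed, 14 of 21 measured were higher and 2 lower with overexpression (median 1.52), against 3 higher and 2 lower with the hairpin (median 0.01). The hairpin counts are near the shares of all genes there (12.4% higher and 8.52% lower). With overexpression those shares were 10.6% and 7.28%. ATF3, a stress-induced repressor, was at 5.41 and 104 RPKM with overexpression, ARC, known from neurons, at 0.651 and 26.0, and GADD45B, a stress sensor, at 3.25 and 31.6. With the hairpin GADD45B was at 3.27 and 9.37 RPKM, and the Notch target HES1 at 35.9 and 86.9. PLK2, a polo-like kinase gene, was lower there (62.8 and 20.4) and also with overexpression (70.2 and 17.3). ID1 was the other gene lower with overexpression (30.2 and 10.5, named after its values were seen), and it was higher with the hairpin (40.7 and 92.5). With the trend removed the hairpin counts were 0 higher and 2 lower of 21, against 4.86% and 5.15% of all genes. CYR61, ZFP36 and BTG2 stand in this list and also in a list below.

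The kinases and cofactors upstream of SRF were read against the shares of all genes given above, 10.6% higher and 7.28% lower with overexpression and 12.4% and 8.52% with the hairpin. With the trend removed the hairpin shares were 4.86% higher and 5.15% lower. Of 16 genes of the RAS-ERK-RSK cascade 3 were higher and 0 lower with overexpression (median 0.17). RPS6KA3 (RSK2), a kinase that phosphorylates SRF, was at 30.8 and 116 RPKM, and BRAF at 5.25 and 12.9, a log2 ratio of 1.16 that was 0.97 with the trend removed. RPS6KA2 was the third (1.39 and 4.93, named after its values were seen). With the hairpin 3 were higher and 1 lower (median -0.22): RPS6KA2 at 1.14 and 5.68 RPKM, HRAS at 49.7 and 153, MAP2K2 at 31.1 and 81.0, and, named after its values were seen, NRAS at 22.7 and 9.94. With the trend removed HRAS (0.59) and MAP2K2 (0.56) were within 2-fold, and the counts were 1 higher and 0 lower. Of 10 genes of the JNK and p38 cascades 1 was higher and 1 lower in each pair. The p38 kinase kinase gene MAP2K3 was higher in both, at 40.4 and 94.1 RPKM and at 45.1 and 105, whereas MAP2K6 was at 7.08 and 0.142 with overexpression and MAPK8 (JNK1) at 9.88 and 3.61 with the hairpin. With the trend removed 0 of the 10 passed 2-fold in the hairpin pair (MAP2K3 at 0.79 and MAPK8 at -0.68). Of SRF's partners, 1 of 6 was higher with overexpression, FHL2 at 23.9 and 119 RPKM. With the hairpin FHL2 was at 20.6 and 49.3, while ELK3 (66.1 and 21.2), a ternary complex factor, and MKL2 (6.96 and 1.77), a coactivator, were lower. With the trend removed FHL2 (0.75) and MKL2 (-0.94) were within 2-fold there, and ELK3 (-1.27) was the 1 of 6 left.

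Downstream of EGR1 and SRF the genes went both ways. The shares of all genes were again 10.6% higher and 7.28% lower with overexpression, and 12.4% and 8.52% with the hairpin. Of 12 NAB genes and known EGR1 targets, 3 of 11 measured were higher and 0 lower with overexpression (median 0.43), with PDGFA, a growth factor chain, at 5.23 and 29.8 RPKM, the adhesion gene ICAM1 at 25.4 and 83.2, and F3, tissue factor, at 1.80 and 4.64 (the last named after its values were seen). With the hairpin, where EGR1 was higher as well, 0 of 10 were higher and 3 lower (median -0.34): fibronectin FN1 at 52.2 and 11.9 RPKM, the corepressor NAB1 at 8.56 and 3.39, and, named after its values were seen, PDGFB at 2.49 and 0.280. The other NAB gene, NAB2, went the other way within 2-fold with the hairpin, at 42.2 and 77.0 RPKM (log2 ratio 0.85, named after its values were seen). With the trend removed 2 of the 10 were lower, against 5.15% of all genes, and NAB1 was at -0.74. FN1 also differed between the controls, at 105 RPKM in vector and 52.2 in scramble cells. Of 22 cytoskeletal and matricellular genes driven by SRF with MRTF coactivators, 3 of 21 were higher and 1 lower with overexpression (median 0.06). The higher genes were ANKRD1 at 1.51 and 13.1 RPKM, CYR61 at 52.6 and 146, and CTGF at 39.5 and 108. The lower gene was TAGLN (4.86 and 1.92, named after its values were seen). With the trend removed 4 were higher and 0 lower, against 8.1% and 6.39% of all genes. With the hairpin 1 of 20 was higher and 3 lower (median -0.06), with CTGF at 50.4 and 9.41, the focal adhesion gene VCL at 57.8 and 21.0 and CYR61 at 84.9 and 37.4. Of 10 genes acting on mRNA decay, which limits the life of immediate early RNAs, 2 were higher and 2 lower with overexpression (median -0.25) and 0 passed 2-fold with the hairpin (median -0.45). ZFP36 (tristetraprolin), which binds AU-rich elements, was at 14.7 and 49.5 RPKM with overexpression, BTG1 at 29.5 and 138, and TOB1 at 24.6 and 10.6.

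**Figure D4:**
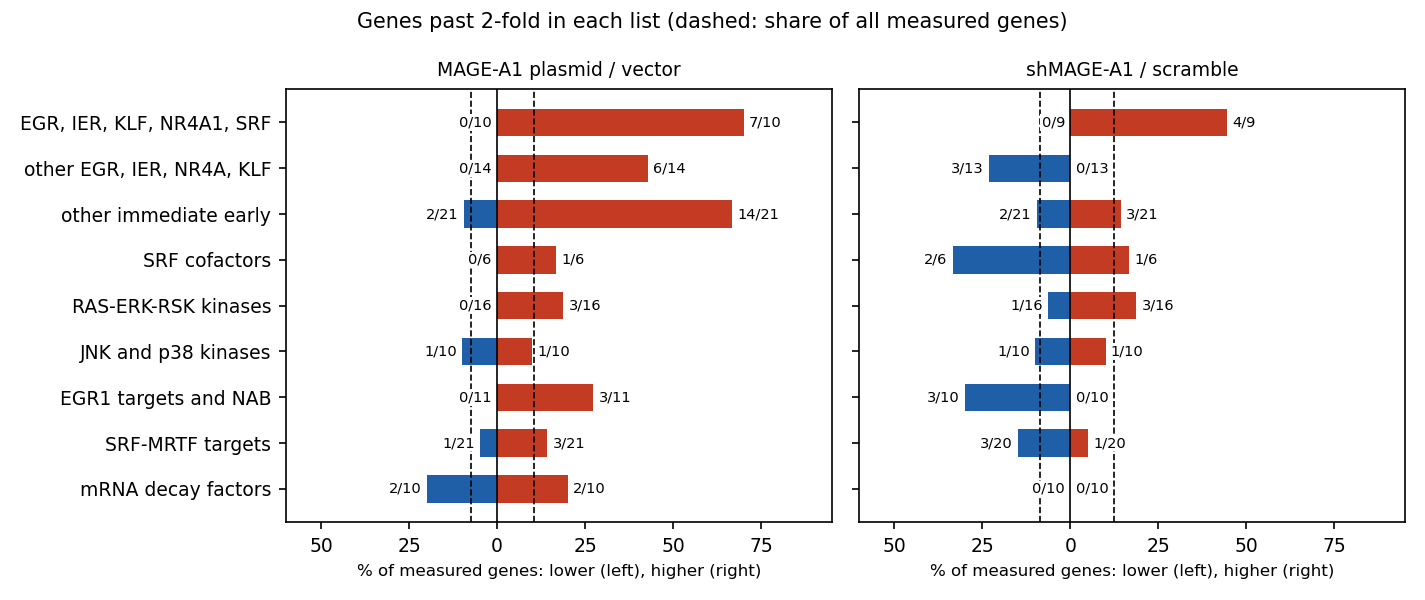
Share (%) of measured genes in each list that were at least 2-fold lower (blue, left) or higher (red, right) in the overexpression pair and the hairpin pair, with counts beside the bars and dashed lines at the share of all measured genes. The 10 genes have 7 of 10 and 4 of 9 higher, and their relatives have 6 of 14 higher on the left but 3 of 13 lower on the right.

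The genes with a pattern over the 4 libraries most like that of EGR1 were sought among 10925 other genes reaching 5 RPKM in a library. The measure was the Euclidean distance between centred log2(RPKM + 1) profiles, in which centring takes out the mean level of each gene. SH2D5 was nearest (distance 0.21), with levels of 0.579, 15.2, 0.938 and 3.01 RPKM. PPP1R15A (GADD34), a phosphatase subunit acting on eIF2 alpha, followed (0.24), then UPP1 (0.33), a uridine phosphorylase, BEX2 (0.34) and asparagine synthetase ASNS (0.35). ASNS was at 22.2, 260, 23.1 and 44.2 RPKM. Nearest to the median profile of the 10 genes were the glycine transporter SLC6A9 (0.11), the mitochondrial folate enzyme MTHFD1L (0.14), the transcription factor TEAD4 (0.14), JARID2 (0.14) and the kinase DGKD (0.15). With 4 libraries these profiles rest on 4 values each, and a small distance describes these values only.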

How the data were processed

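RNA of 4 stably transfected A375 lines, 1 library each, was poly(A)-selected and sequenced on an Ion Torrent instrument, per the labels' protocols. The deposited values are RPKM, computed by the authors and named so in the file headers, with 1 value per gene symbol. The submitters' processing notes name hg19 as build, and as tools Cufflinks 2.2.0, SAMtools 1.1, Bowtie2 2.2.4 and TopHat2 2.0.13; what annotation and filters were applied is unstated. Groups came from sample titles. A pair's gene counted as measured when at least 1 of its libraries reached 1 RPKM, and as higher or lower at a log2 ratio of (RPKM + 1) of at least 1 in size. With 1 library per group no test was possible.

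The genes, the 8 gene lists and the marker lists were chosen with earlier results of these data known. Named genes were all 10, up to 3 per list and pair (at 5 RPKM or more, past 2-fold, largest ratio first) and the 5 nearest profiles; others are marked. Reads were estimated from 2303 genes with 1 GENCODE 29 transcript over 600 nt: after a length shift of 200 nt, 63.0% to 70.7% of values of 1 to 5 reads lay within 0.1 of a whole number, against 20% by chance. Length and GC came from the longest RefSeq-linked GENCODE 29 transcript (21577 symbols matched), and the trend was a cubic in both. Ratio intervals are exact conditional (Clopper-Pearson). Code was tested on simulated data (Python 3.11.15, numpy 2.4.6, pandas 2.3.3, scipy 1.17.1). Alternatives covered pseudocount, filter, fold, scaling, control and trend.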

Additional observations from a re-analysis of the deposited data

How the results depend on the processing

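In the overexpression pair, 7 genes were higher under 9 of 10 alternatives and 5 with a 3-fold threshold (EGR1, EGR2, IER2, KLF4 and NR4A1), 0 were lower in any, and the median log2 ratio ranged from 1.46 to 1.70. In the hairpin pair, 4 genes were higher as reported, 3 with upper quartile scaling or the length and GC trend removed, and 0 with a 3-fold threshold, with scaling to ubiquitous genes and with scaling without small RNA genes; the median ranged from 0.40 to 0.95. There, 1 gene, EGR3, was lower instead of 0 with a pseudocount of 0.1, with all 3 scalings, against the vector library and against the mean of both controls. Between the controls 0 genes passed in any of 8 alternatives. Of the values of single genes, 187 kept their side of 2-fold, 8 moved past it and 11 dropped below it, all 19 in the hairpin pair. The scalings move all genes together, and the cause of the library differences behind them was not tested. The EGR2 values in both controls and the hairpin library rest on 1 to 24 estimated reads. No paired analysis was possible because each group held 1 library, and none could be left out.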
